A study of Homo sapiens with 6 samples.

Results

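This account concerns 10 genes of the contractile actin cytoskeleton, taken by symbol from the 26334 rows of the deposited count table: CALD1 (caldesmon), the tropomyosin genes TPM1, TPM2, TPM3 and TPM4, the transgelin genes TAGLN and TAGLN2, the calponin gene CNN2, and the myosin genes MYL9 and MYH9. All 10 rows were present and all 10 passed the filter on low counts. They were measured in clonal lines of MiaPaCa2, a human pancreatic ductal adenocarcinoma cell line, in 3 ZEB1-KO clones and 3 WT clones with 1 library per clone. WT clones came from cells that received the Cas9-GFP plasmid, ZEB1-KO clones from cells that received this plasmid with a ZEB1 guide RNA, and both were sorted as GFP-positive cells and grown in the same serum-containing medium. Because every clone derives from a single line, differences between clones of 1 group are differences between sublines, and p-values measure the spread between these clones. Each library was prepared with SMART-Seq2 from a small number of lysed cells, so less RNA of a gene per cell and fewer cells expressing it cannot be told apart.

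Contractile force in non-muscle cells comes from bipolar filaments of myosin II pulling on actin filaments bundled into stress fibres. Tropomyosins are coiled-coil dimers that lie along the actin filament and set which other proteins can bind it; caldesmon binds actin, tropomyosin and myosin and inhibits the myosin ATPase; calponins and transgelins share a calponin-homology domain and bind actin filaments. MYH9 encodes the heavy chain of non-muscle myosin IIA and MYL9 a regulatory light chain whose phosphorylation activates the motor. In carcinoma cells some of these genes are often counted among markers of the mesenchymal state. Many of the genes are targets of serum response factor (SRF) and its actin-regulated coactivators. ZEB1, the gene targeted here, encodes a zinc-finger repressor of epithelial genes that binds E-boxes such as CACCTG.

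The 250 bases before the annotated start of the genes were available from RefSeq for 8 of the 10; TAGLN and MYL9 had no entry. The 3 genes with the lowest p-values in the comparison below, CALD1, TAGLN2 and CNN2, are shown with TPM4, the other window that held a match, 5′ to 3′ on the gene's strand, with matches to the CArG box, the element bound by SRF, in capitals.
CALD1, GRCh38.p14 chr7:134779384-134779633, plus strand: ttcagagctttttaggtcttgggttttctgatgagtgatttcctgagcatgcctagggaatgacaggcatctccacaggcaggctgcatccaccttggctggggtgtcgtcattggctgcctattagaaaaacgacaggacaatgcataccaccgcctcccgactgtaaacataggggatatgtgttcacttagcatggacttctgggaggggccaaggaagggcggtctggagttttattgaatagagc
TAGLN2, GRCh38.p14 chr1:159925508-159925757, minus strand: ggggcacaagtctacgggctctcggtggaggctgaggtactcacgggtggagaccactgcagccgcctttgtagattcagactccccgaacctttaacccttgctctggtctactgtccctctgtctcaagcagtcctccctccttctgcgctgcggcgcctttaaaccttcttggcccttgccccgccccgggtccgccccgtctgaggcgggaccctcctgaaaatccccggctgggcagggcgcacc
CNN2, GRCh38.p14 chr19:1026358-1026607, plus strand: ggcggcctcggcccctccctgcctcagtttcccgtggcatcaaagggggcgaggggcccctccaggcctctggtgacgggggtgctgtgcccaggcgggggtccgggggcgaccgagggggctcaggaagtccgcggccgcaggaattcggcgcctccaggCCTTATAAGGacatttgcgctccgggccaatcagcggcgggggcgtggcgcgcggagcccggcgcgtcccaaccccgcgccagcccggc
TPM4, GRCh38.p14 chr19:16067288-16067537, plus strand: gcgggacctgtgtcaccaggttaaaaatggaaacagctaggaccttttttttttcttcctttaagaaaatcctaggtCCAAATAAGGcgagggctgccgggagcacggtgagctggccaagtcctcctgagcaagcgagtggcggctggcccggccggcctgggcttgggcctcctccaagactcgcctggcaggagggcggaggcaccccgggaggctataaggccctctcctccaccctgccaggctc
A CArG box was found, on either strand, 89 bases before the CNN2 start and 173 bases before the TPM4 start, and in none of the other 6 windows, against 1.14% of 27305 promoter windows of the same length. The E-box CACCTG, searched on both strands and counted separately from the CArG box, was in 0 of the 8 windows and in 17.5% of all windows. These are matches of letters in a short window at 1 annotated start per gene, and no binding was measured.

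Library totals ranged from 18909305 to 42876693 counts, with the lowest in ZEB1-KO replicate 1. Levels are given as CPM, counts scaled to a common library size after TMM normalisation, and 3 counts, the limit that a count of 0 allows for counting error alone, corresponded to 0.0687 to 0.15 CPM. The targeted gene ZEB1 was at 34.0, 31.2 and 33.6 CPM in WT replicates 1, 2 and 3 and at 3.34, 3.46 and 11.5 CPM in ZEB1-KO replicates 1, 2 and 3, so that transcript was still counted in each ZEB1-KO clone and most in replicate 3. The keratin gene KRT8 was at 816 CPM ± 84.4 among WT clones against 1939 CPM ± 267 among ZEB1-KO clones, and the mesenchymal filament gene VIM at 3536 CPM ± 427 and 1635 CPM ± 467 (SD, n = 3 each), both without overlap, and the part of this shift in the results below was not tested. KRT18 was abundant in all 6 libraries, while the epithelial genes CDH1 and EPCAM had at most 4 counts in any. Of 7 fibroblast markers, DCN, LUM and FAP were at 0 counts throughout and the summed level of the list was 0.0308 to 0.183 CPM in the WT clones and 0.148 to 0.404 CPM in the ZEB1-KO clones. Among 7 markers of smooth muscle and pericytes, MYOCD was at 0 counts in every library, CNN1 and DES had at most 1 count, and ACTA2 had at most 16. The same list summed to 861.3 to 12040 CPM in the WT clones and 2157 to 3087 CPM in the ZEB1-KO clones because of RGS5, a regulator of G-protein signalling, which alone was at 12034 CPM in WT replicate 2. Blood markers summed to 0.567 to 11.2 CPM in the WT clones and 0.124 to 2.34 CPM in the ZEB1-KO clones, nearly all of it CD14, and endothelial markers to 0.203 to 0.916 CPM and 0.593 to 3.14 CPM.

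The comparison asked how the level of each of these genes differs between clones with and without an intact ZEB1 gene, and differences are log2 ratios of ZEB1-KO over WT. The 10 genes differed in direction. CALD1 was lower in every ZEB1-KO clone than in any WT clone, TAGLN2, CNN2 and TPM3 were higher in every ZEB1-KO clone, and the groups overlapped for TPM1, TPM2, TPM4, TAGLN, MYL9 and MYH9. In the quasi-likelihood test of edgeR over 13659 genes, 0 of the 10 passed a Benjamini-Hochberg (BH) adjusted p of 0.05, a threshold that 0.176% of all tested genes passed. At an unadjusted p below 0.05 there were 3 of the 10 (CALD1, TAGLN2 and CNN2), against 17.7% of all tested genes, and groups without overlap were seen for 4 of the 10, against 23.6% of all tested genes. Other tests called more. The authors' deposited table listed CALD1 and TAGLN2 at an FDR below 0.05, where 4.75% of its genes were. The likelihood ratio test of edgeR called the same pair, with 4.52% of all genes called, and DESeq2 called CALD1, TAGLN2 and CNN2, with 7.12% of all genes called. The median log2 ratio of the 10 genes was 0.14, against -0.0082 over all genes tested, with 6 above 0 and 4 below, and it ran from -0.175 to 0.446 over all settings. The signs of CALD1, TAGLN2, CNN2 and TPM3 held under all 18 alternative settings, and the sign of each of the other 6 changed under 2 to 6 of them.

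**Figure D1:**
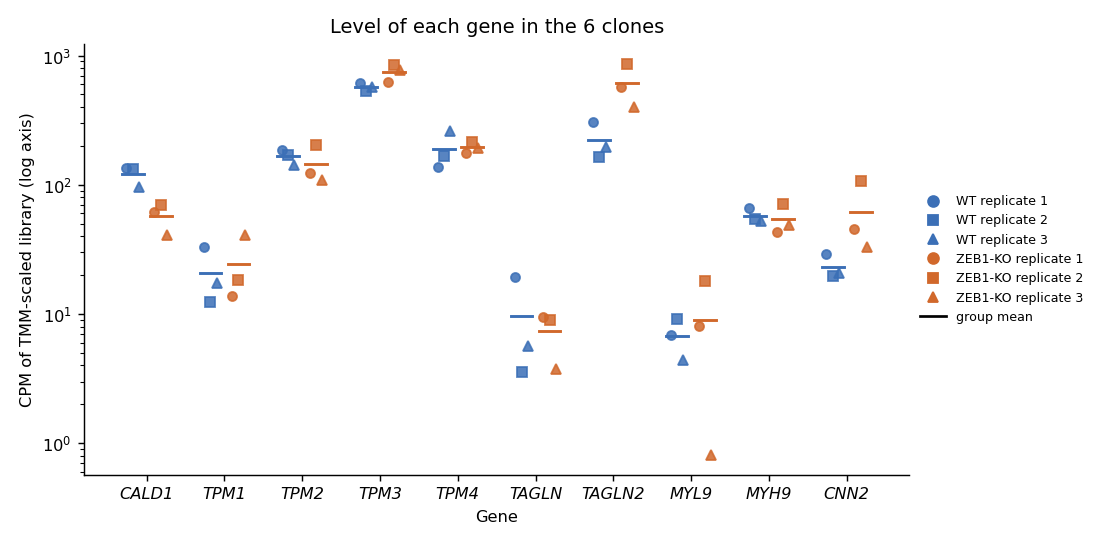
Level of each of the 10 genes in CPM (log axis), 1 point per clone, with WT in blue, ZEB1-KO in orange and the group mean as a bar. CALD1 points separate downwards, TAGLN2, CNN2 and TPM3 points separate upwards, and MYL9 in ZEB1-KO replicate 3 lies at 0.809 CPM.

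CALD1 was the only member below every WT clone in all 3 ZEB1-KO clones. It was at 135.0, 132 and 96.3 CPM in WT replicates 1, 2 and 3 and at 62.1, 69.7 and 40.8 CPM in ZEB1-KO replicates 1, 2 and 3. The lowest WT clone thus lay above the highest ZEB1-KO clone, and the lowest value of all belonged to ZEB1-KO replicate 3, the clone that kept most ZEB1 transcript. The means were 121 CPM ± 21.7 among WT clones against 57.5 CPM ± 14.99 among ZEB1-KO clones (SD, n = 3 each), a level in ZEB1-KO clones 0.474 times that in WT clones. The log2 ratio was -1.08 with a standard error of 0.26 and a 95% interval of -1.68 to -0.48, and the adjusted p from the quasi-likelihood test was 0.114. In the authors' deposited table CALD1 had a log2 ratio of -1.08 at an FDR of 0.0251, and DESeq2 gave a BH-adjusted p of 0.0111. With 1 clone left out at a time, the log2 ratio stayed between -1.24 and -0.88.

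Genes whose levels ran most like CALD1 across the 6 libraries were found by the root-mean-square difference of log2 CPM, each gene centred on its own mean, among 7178 other tested genes with a mean of at least 10 CPM. CTBP2, which encodes a transcriptional corepressor, was nearest at 0.10, with 104, 100.3 and 69.9 CPM in the WT clones and 51.8, 48.7 and 34.97 CPM in the ZEB1-KO clones. DNAJC15, a mitochondrial co-chaperone gene, followed at 0.14 and MPHOSPH8, a gene for a chromatin reader, at 0.14, then the transport adaptor gene TRAK1 at 0.17 and WDR47 at 0.17. Each of these had its lowest level in ZEB1-KO replicate 3, as CALD1 did. This likeness follows largely from choosing them by nearness to CALD1 over these same libraries and is not a separate result. TPM2 was the nearest member at 0.46, with rank 580, and MYH9 had rank 1614, whereas CNN2 and TAGLN2 had ranks 6875 and 6934 of 7178.

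TAGLN2, the transgelin of non-muscle cells, was at 306, 163 and 197 CPM in WT replicates 1, 2 and 3 and at 575, 867 and 397 CPM in ZEB1-KO replicates 1, 2 and 3. Every ZEB1-KO clone was above every WT clone, though the highest WT clone and the lowest ZEB1-KO clone were close relative to the spread within each group. The means of 222 CPM ± 74.8 and 613 CPM ± 237 (SD, n = 3 each) corresponded to a 2.76-fold higher level. The log2 ratio of 1.46 had a standard error of 0.35, a 95% interval of 0.67 to 2.26 and a BH-adjusted p of 0.110 in the quasi-likelihood test, against an FDR of 0.00812 in the authors' deposited table and an adjusted p of 0.00296 with DESeq2. It was between 1.13 and 1.79 with 1 clone left out at a time.

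TAGLN, the transgelin of smooth muscle (also called SM22-alpha) and a frequently used mesenchymal marker, had far fewer counts than TAGLN2 and overlapped between the groups. It was at 19.5, 3.58 and 5.71 CPM in the WT clones and at 9.42, 8.94 and 3.76 CPM in ZEB1-KO replicates 1, 2 and 3. WT replicate 1 alone was above 10 CPM, and the other 5 clones lay between 3.58 and 9.42 CPM. The log2 ratio was -0.39 with a standard error of 0.63 (adjusted p = 0.783), and it was 0.69 without WT replicate 1 and 0.11 to 0.16 on the TPM-unit scales. Its 95% interval of -1.83 to 1.06 spans a large change in either direction. TAGLN overlaps PCSK7 in the RefSeq annotation, and PCSK7 had 212 to 648 counts per library against 116 to 852 for TAGLN. The SMART-Seq2 libraries carry no strand information, reads from the shared stretch cannot be assigned to either gene, and their part in the TAGLN counts was not tested.

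In the deposited TPM unit, a transcript abundance corrected for gene length and not to be confused with the gene symbols TPM1 to TPM4, TAGLN2 made up 93.3%, 97.6% and 96.8% of the transgelin total in WT and 98.2%, 98.9% and 98.9% in ZEB1-KO replicates 1, 2 and 3. The shares did not overlap and differed by 2.75 percentage points, at the smallest two-sided p of 0.1 that an exact permutation test of 3 against 3 clones allows (0.45 after Benjamini-Hochberg adjustment over the 9 family comparisons). Without WT replicate 1, the clone with the highest TAGLN level, the difference was 1.45 percentage points. TAGLN3, the neuronal transgelin, was not in the deposited abundance table and had counts only in ZEB1-KO replicate 1, where there were 13.

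CNN2, the calponin of non-muscle cells, was at 29.1, 19.8 and 20.8 CPM in the WT clones and at 45.6, 107.5 and 32.9 CPM in ZEB1-KO replicates 1, 2 and 3. All 3 ZEB1-KO clones were above all WT clones, but ZEB1-KO replicate 2 carried much of the difference. The means were 23.3 CPM ± 5.12 and 62.0 CPM ± 39.9 (SD, n = 3 each), with a log2 ratio of 1.41, a standard error of 0.43, a 95% interval of 0.43 to 2.40 and a BH-adjusted p of 0.151. Without ZEB1-KO replicate 2 the log2 ratio was 0.75 at a BH-adjusted p of 0.305, both from the quasi-likelihood test. The authors' deposited table gave CNN2 an FDR of 0.0512, just above 0.05, and DESeq2 an adjusted p of 0.0204. CNN1, the smooth muscle calponin, had 1 count in all libraries together. CNN3, the remaining calponin, had 81, 130 and 311 counts in WT and 16, 348 and 31 counts in ZEB1-KO clones. CNN2 accounted for 93.4%, 81.6% and 59.7% of calponin abundance in TPM units in WT and for 98.1%, 91.8% and 96.8% in ZEB1-KO replicates 1, 2 and 3, shares that overlapped (exact permutation p = 0.2, adjusted 0.6).

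**Figure D2:**
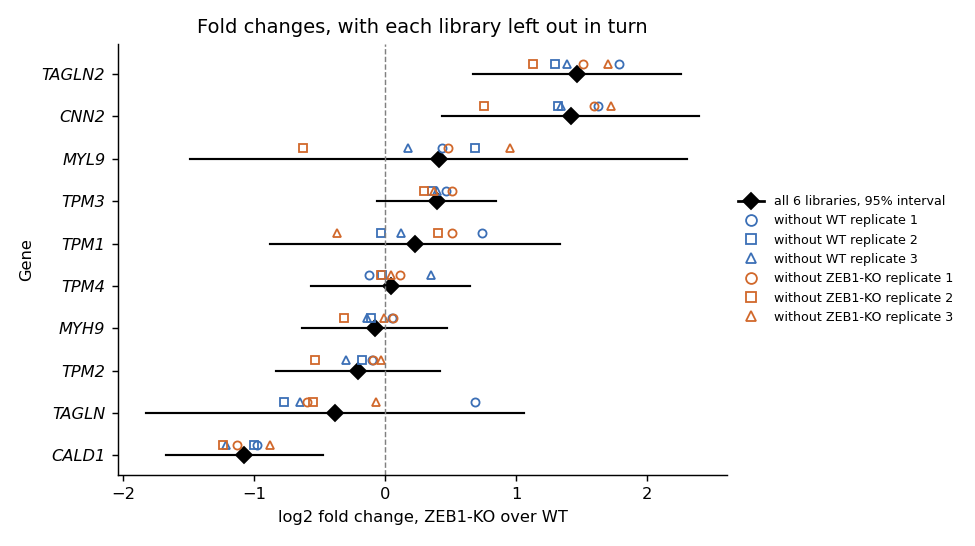
Log2 ratio of each gene (x axis, ZEB1-KO over WT) from all 6 libraries as a black diamond with its 95% interval, and with each library left out in turn as open symbols. TAGLN2, CNN2, TPM3, TPM2 and CALD1 keep their side of 0 whichever library is left out, whereas TAGLN crosses 0 without WT replicate 1 and MYL9 without ZEB1-KO replicate 2.

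Among the tropomyosins, TPM3 had the most counts in all 6 libraries. It was at 612, 535 and 568 CPM in the WT clones and at 628, 850.2 and 774 CPM in ZEB1-KO replicates 1, 2 and 3. The ZEB1-KO clones lay above the WT clones, with only a small gap between WT replicate 1 and ZEB1-KO replicate 1. The pseudogene TPM3P9, which could share reads with TPM3, was at 1.74 to 5.41 CPM. The log2 ratio of 0.39 had a standard error of 0.20 and a 95% interval of -0.063 to 0.85 (adjusted p = 0.337), so a change as large as that of TAGLN2 lay outside the interval. It stayed between 0.29 and 0.51 with 1 clone left out at a time, and was 0.65 to 0.66 on the TPM-unit scales with limma (adjusted p = 0.155 to 0.159).

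TPM2 was at 187, 172 and 143 CPM in the WT clones and at 123, 204 and 109 CPM in the ZEB1-KO clones. ZEB1-KO replicate 2 was the highest of all 6 clones and the other ZEB1-KO clones were the lowest, and the log2 ratio of -0.21 (SE 0.27, adjusted p = 0.727) changed sign to 0.021 on each of the 3 TPM-unit scales. It was -0.53 without ZEB1-KO replicate 2 (adjusted p = 0.360) and -0.033 without ZEB1-KO replicate 3. TPM4 was at 138, 168 and 263 CPM in the WT clones and at 176, 215 and 194 CPM in the ZEB1-KO clones. The ZEB1-KO values lay inside the WT range, with a log2 ratio of 0.041, a standard error of 0.26 and a 95% interval of -0.56 to 0.65, and it was 0.36 on the TPM-unit scales. TPM1, the tropomyosin gene best known as a suppressor of transformation, was the least abundant at 32.8, 12.4 and 17.4 CPM in the WT clones and 13.9, 18.3 and 41.1 CPM in the ZEB1-KO clones. Its highest values came from WT replicate 1 and ZEB1-KO replicate 3, and the log2 ratio of 0.23 (SE 0.48, adjusted p = 0.835) was -0.37 when ZEB1-KO replicate 3 was left out and -0.030 when WT replicate 2 was left out.

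Compared per length, the order of the tropomyosins differed from that of their counts. TPM2 stood highest at 151 ± 29.7 TPM units in WT clones and 160.0 ± 68.6 among ZEB1-KO clones (SD, n = 3 each). TPM4 was at 88.8 ± 29.1 and 112 ± 18.85, TPM3 at 70.2 ± 11.0 and 111 ± 23.7, and TPM1 at 9.08 ± 5.43 and 12.4 ± 7.09. TPM2 led the 4 genes in each library, TPM1 was last in each, and TPM3 and TPM4 exchanged places between clones and did not differ beyond their spread. The lead of TPM2 was small in WT replicate 3, at 127 against 122 for TPM4. It was also small in ZEB1-KO replicate 3, at 114 against 111 for TPM3. Among ZEB1-KO clones TPM2 did not exceed TPM3 and TPM4 beyond its spread. These levels rest on the gene lengths the authors used, which the sources used here do not give.

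The 4 genes summed to 353, 279 and 326 TPM units in WT and to 317, 517 and 353 in ZEB1-KO replicates 1, 2 and 3. The totals overlapped, and the difference of 76.3 (exact permutation p = 0.5) was 15.7 without ZEB1-KO replicate 2. On the TPM-unit scales the log2 ratios of all genes were higher by a median of 0.244 to 0.265 than in the quasi-likelihood fit. This shift enters every difference between groups in TPM-unit levels, and its part in the total was not tested. Within the total, the share of TPM3 was 23.2%, 21.5% and 21.1% in WT and 27.8%, 26.2% and 31.4% in ZEB1-KO clones, with no overlap and a difference of 6.54 percentage points (exact permutation p = 0.1, the smallest possible, adjusted 0.45). A share does not depend on how libraries are scaled. TPM2 made up 52.2%, 50.7% and 39.1% in WT and 40.0%, 46.2% and 32.4% in ZEB1-KO clones, which overlapped (exact permutation p = 0.3, adjusted 0.675). The share of TPM4 averaged 28.0% ± 8.83 and 28.7% ± 2.69, and that of TPM1 2.75% ± 1.37 and 3.28% ± 2.15 (SD, n = 3 each).

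**Figure D3:**
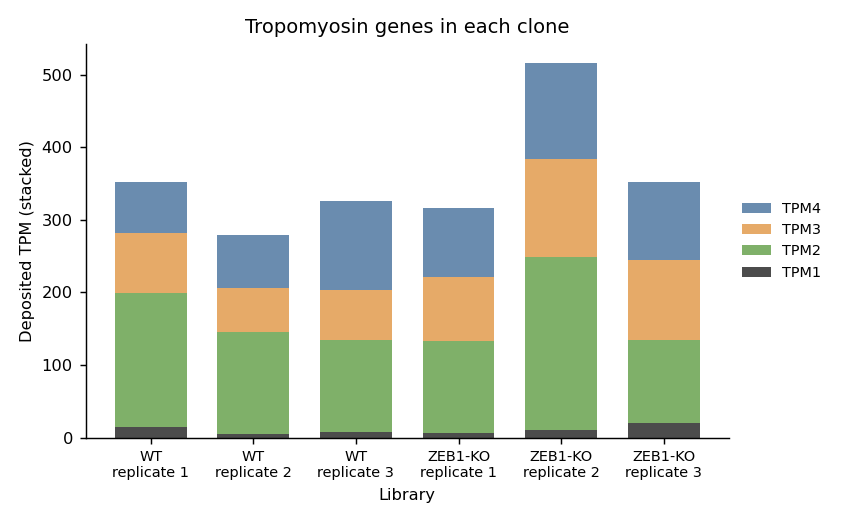
Stacked deposited abundance (TPM unit) of TPM1, TPM2, TPM3 and TPM4 in each library (1 bar per clone). The 6 bars run from 279 to 517, the tallest is ZEB1-KO replicate 2, and the TPM3 segment takes 26.2% to 31.4% of each ZEB1-KO bar against 21.1% to 23.2% of each WT bar.

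For both myosin genes among the 10 the WT and ZEB1-KO values overlapped. MYH9 was at 66.2, 54.1 and 52.4 CPM in the WT clones and at 43.4, 70.7 and 49.3 CPM in the ZEB1-KO clones. The lowest and the highest of the 6 values both came from ZEB1-KO clones, and the log2 ratio was -0.079 with a standard error of 0.24, a 95% interval of -0.63 to 0.47 and a BH-adjusted p of 0.890. Its sign depended on the scaling, with 0.069 for library size alone and 0.158 to 0.169 on the TPM-unit scales. Of the non-muscle heavy chains in the deposited table, MYH9 took 42.3% ± 6.62 of MYH9 and MYH10 together in WT and 43.2% ± 6.58 among ZEB1-KO clones (SD, n = 3 each, exact permutation p = 1.0). MYH14 was not in that table and had at most 30 counts in a library.

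MYL9 was the least even member among the ZEB1-KO clones. It had 302, 297 and 108 counts in WT and 163, 736 and 26 counts in ZEB1-KO replicates 1, 2 and 3, which corresponded to 6.91, 9.16 and 4.37 CPM and to 8.13, 18.2 and 0.809 CPM. The highest ZEB1-KO clone was 22.5 times the lowest, against 2.09 times in WT clones, where TAGLN was less even at 5.45 times. The SD of log2 CPM of MYL9 was 2.27 among ZEB1-KO clones, where the median over all tested genes was 0.37. The log2 ratio of MYL9, 0.41 (SE 0.83, adjusted p = 0.828), was -0.63 without ZEB1-KO replicate 2 and -0.40 with limma-voom. MYL9 made up only 0.274% ± 0.110 of the 3 non-muscle regulatory light chain genes by TPM units in WT and 0.602% ± 0.621 among ZEB1-KO clones (SD, n = 3 each, exact permutation p = 0.5), the rest being MYL12A and MYL12B.

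ZEB1-KO replicate 2 had the highest CPM of its group for 8 of the 10, all but TPM1 and TAGLN, and was lowest for none, while over all tested genes it was highest for 36.9% and lowest for 35.2%. WT replicate 1 had the highest CPM of its group for 8 of the 10, all but TPM4, for which it was lowest, and MYL9, and over all tested genes it was highest for 35.7%. The differences in CNN2 and in the tropomyosin total were smaller without ZEB1-KO replicate 2, as given above, while CALD1 differed by -1.24 on the log2 scale without it.

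Per length, TAGLN2 or TPM2 was the most abundant of the 10 in every library. TAGLN2 stood at 183 ± 78.2 TPM units in WT, near TPM2, and at 607 ± 276 among ZEB1-KO clones (SD, n = 3 each), where it was first in all 3. CALD1 held rank 5 in each WT library with 38.0, 31.2 and 24.5 TPM units against 17.7, 10.1 and 11.4 for CNN2. In ZEB1-KO replicates 1, 2 and 3 the order was turned, with 18.3, 23.3 and 12.3 for CALD1 and 29.1, 77.9 and 21.4 for CNN2. MYH9, MYL9, TAGLN and TPM1 had means between 7.998 and 13.4 in either group and did not differ from each other beyond their spread. CNN2 in WT clones, at 13.1 ± 4.08 (SD, n = 3), lay in the same range. Nor were they lowest in every library: MYL9 at 28.0 in ZEB1-KO replicate 2 and TPM1 at 20.3 in ZEB1-KO replicate 3 were above CALD1.

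A further 4 lists of related genes were compared with the 10. For the motor and regulators of myosin II, 17 of 21 tested members had a log2 ratio below 0, with a median of -0.24 against -0.0082 over all genes tested, and 0 passed the adjusted threshold in the quasi-likelihood test. At an unadjusted p below 0.05 were 3 of the 21, all lower in ZEB1-KO clones (MYL12A, ROCK1 and MYL6), where 17.7% of all tested genes were, so this count was not above the background. MYL12A, an abundant regulatory light chain, was at 1148, 1736 and 1691 CPM in the WT clones and at 754, 708 and 769.6 CPM in the ZEB1-KO clones, with a log2 ratio of -1.04, a standard error of 0.22 and a BH-adjusted p of 0.0980. DESeq2, which called 7.12% of all genes, called it lower at a BH-adjusted p of 0.00480. The ZEB1-KO clones were close to each other and all below the WT clones. MYL12B, its near-identical neighbour paralogue, had a log2 ratio of -0.43, and reads common to both may be split between them. The essential light chain gene MYL6 was at 2825 CPM ± 308 and 1716 CPM ± 278, and ROCK1, the kinase that acts on the light chain and its phosphatase, at 86.9 CPM ± 8.51 and 51.8 CPM ± 8.35 (SD, n = 3 each), with adjusted p-values of 0.146 and 0.131. The list's median was 0.0182 to 0.0187 with the deposited TPM values, where 17 to 19 of its genes were tested, and on that scale the log2 ratios of all genes were higher by a median of 0.244 to 0.265.

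Actin crosslinkers and stress fibre proteins split nearly evenly. Of 20 tested members, 11 were above 0 and 9 below, with a median of 0.18, and 0 passed the adjusted threshold, with 3 higher and 1 lower at an unadjusted p below 0.05 in the quasi-likelihood test, a count close to the 17.7% of all tested genes. The median was -0.0054 without ZEB1-KO replicate 2, 0.092 without WT replicate 2 and 0.024 with a filter of 1 CPM in 3 libraries, which left 18 of the genes. PDLIM1, a PDZ and LIM domain protein that binds alpha-actinin, was at 5.27, 6.29 and 1.82 CPM in the WT clones and at 566.7, 7.06 and 20.8 CPM in ZEB1-KO replicates 1, 2 and 3. Its log2 ratio of 5.46 (SE 1.56, adjusted p = 0.138) comes with 1 library, ZEB1-KO replicate 1, far above the other 5. ACTN4, an alpha-actinin, was at 7.94 CPM ± 1.27 and 13.6 CPM ± 4.22, FLNA, the filamin A gene, at 12.2 CPM ± 5.68 and 25.9 CPM ± 15.03, and SVIL, which encodes supervillin, at 33.7 CPM ± 2.77 and 20.1 CPM ± 3.29 (SD, n = 3 each), with adjusted p-values of 0.223, 0.269 and 0.144.

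The SRF module held SRF and regulators of it, such as MKL2 and ELK1, beside target genes. It had 10 of 13 tested members above 0, with a median of 0.46 against -0.0082 over all genes tested. The median ranged from 0.344 to 0.916 over all settings. None of the 13 passed the adjusted threshold. At an unadjusted p below 0.05 in the quasi-likelihood test 5 were higher (ACTB, ACTG1, EGR1, MKL2 and ELK1), of which ELK1 alone overlapped between the groups. Over all 13659 tested genes 1317 were higher at this threshold, and 17.7% passed it in both directions. DESeq2 called 3 of the module (ACTB, ACTG1 and EGR1), against 7.12% of all genes. The target genes VCL, CYR61, CTGF and FHL1 overlapped between the groups, with log2 ratios of 0.15, 0.69, 0.30 and -0.54. ACTB, the beta-actin gene, was at 3595, 3064 and 2907 CPM in the WT clones and at 6004, 11401 and 6123 CPM in the ZEB1-KO clones, with a log2 ratio of 1.30, a standard error of 0.30 and a BH-adjusted p of 0.105. As for TAGLN2 and CNN2, every ZEB1-KO clone was above every WT clone and ZEB1-KO replicate 2 was highest. ACTG1, the gamma-actin gene, was at 3405 CPM ± 483 and 6130 CPM ± 832, and the immediate early gene EGR1 at 67.1 CPM ± 22.8 and 133.8 CPM ± 26.8 (SD, n = 3 each). SRF itself had a log2 ratio of 0.30 with a standard error of 0.39 (adjusted p = 0.714). ACTB and ACTG1 have many processed pseudogenes, and the sources used here do not say how shared reads were counted.

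Of 13 genes listed for smooth muscle, not all of them restricted to it, only 4 had enough counts to be tested. Their median log2 ratio was -0.14, and 0.0090 with library size alone, with 0 at an unadjusted p below 0.05 in the quasi-likelihood test or called by DESeq2. SYNM was the only one above 2 CPM, at 7.20 CPM ± 0.986 among WT clones against 5.86 CPM ± 1.95 among ZEB1-KO clones (SD, n = 3 each). Its adjusted p was 0.664. MYH11 and LDB3 had log2 ratios of -0.18 and 0.33.

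**Figure D4:**
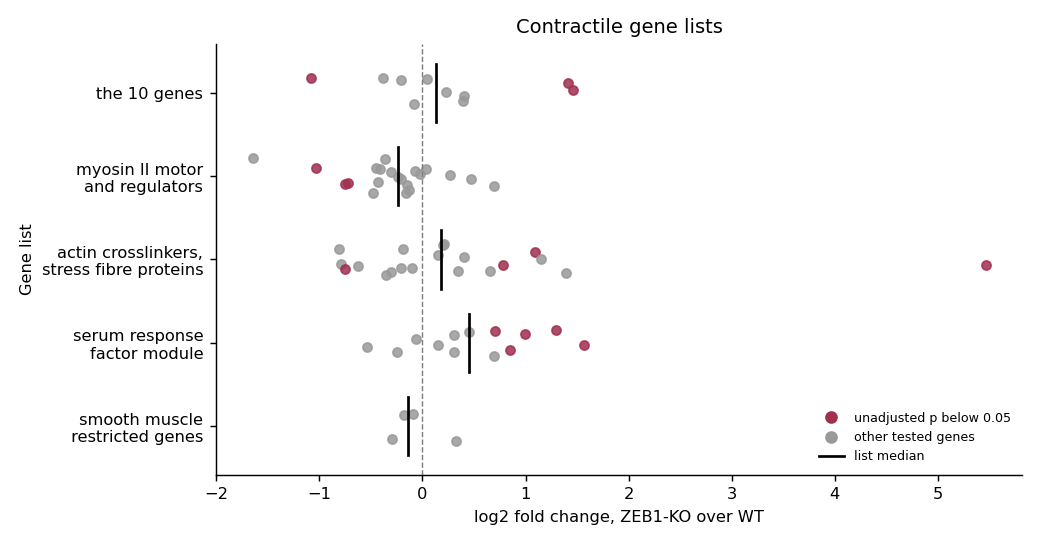
Log2 ratio (x axis, ZEB1-KO over WT) of every tested gene in the 10 genes and in 4 related lists (rows), with genes at an unadjusted p below 0.05 in red and the median of each list as a bar. Most points of the myosin II row lie below 0 and most of the SRF row above it, and the point at 5.46 is PDLIM1.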

How the data were processed

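The authors deposited 3 tables: raw counts of 26334 gene symbols, TPM (length-corrected abundance) of 11013 of them, and edgeR results for these 11013. Per the file headers, the last holds log2 fold changes, log2 mean CPM, the likelihood ratio (a score) and the raw and FDR-adjusted p-values. Per the submitters' processing notes, the tools were TopHat2 2.1.0, HTSeq 0.6.1 and edgeR 3.2.2, and the builds hg19 and GRCh37, with settings not given in the sources used here. Within each gene the deposited TPM were exactly proportional to counts after library scaling, as checked over 9062 genes with at least 50 counts in each library.

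Counts were fitted in edgeR 4.0.16 (R 4.3.3): filterByExpr (minimum count 10, total 15; 13659 genes), TMM, glmQLFit and glmQLFTest with group alone, two-sided, Benjamini-Hochberg adjustment over all genes tested, threshold 0.05. SEs were derived from the F statistic, and 95% intervals from its degrees of freedom. Log2 CPM used a prior count of 2. Family shares used TPM and exact permutation tests. Every pair of libraries differed beyond counting noise (chi-square per gene of at least 122.6) and all 6 were kept.

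Named were all 10 members, ZEB1, the members of each list past the threshold or otherwise the 3 with the lowest p, and the 5 genes nearest to CALD1. CNN3, MYL12B, RGS5, SRF, MYH10, MYH14, TAGLN3 and PCSK7 were added as family, overlapping or marker genes. MKL2, ELK1, VCL, CYR61, CTGF, FHL1, FLNA and MYLK were added after their values were seen. The marker genes are those of the marker lists. The members and lists were chosen with earlier results of these data known. The fitting code was tested on simulated data. Alternatives were other scaling (RLE, upper quartile, none), other filters, DESeq2 1.42.0, the likelihood ratio test, limma 3.58.1 (voom, or log2 TPM with a pseudocount of 1 or 0.1), a replicate block and leaving out each library. Promoter sequences are from RefSeq, GRCh38.p14, a build other than that of the files.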

Additional observations from a re-analysis of the deposited data

How the results depend on the processing

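CALD1, TAGLN2, CNN2 and TPM3 kept their direction under all 18 alternatives. Over these, adjusted p-values ran from 0.0111 to 0.278 for CALD1, 0.00296 to 0.308 for TAGLN2 and 0.0204 to 0.368 for CNN2. Of the 10 members, 3 were called by DESeq2 and 2 by the likelihood ratio test, and 0 under each other alternative. Over all genes, the 16 higher and 8 lower calls became 87 and 47 with no filter, 570 and 365 with DESeq2, 376 and 241 with the likelihood ratio test, 82 and 19 on log2(TPM + 1), 76 and 18 on log2(TPM + 0.1), and 63 and 17 on unfiltered log2(TPM + 1). The share of higher calls is thus larger on the TPM scale, on which log2 fold changes of all genes are higher by a median of 0.244 to 0.265; for library size alone the shift is 0.15, with 20 higher and 7 lower calls. Leaving out 1 library gave 3 to 16 higher and 2 to 10 lower calls. The myosin II list had 1 call with DESeq2 and 1 with the likelihood ratio test (MYL12A), the crosslinkers 1 with the likelihood ratio test (PDLIM1), and the SRF module 3 and 2. The cause of these differences was not tested.

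Sign changes were seen among members that no setting called. MYH9 went to 0.069 for library size alone, 0.158 on log2(TPM + 1), filtered or not, and 0.169 on log2(TPM + 0.1). TPM2 went to 0.021 on all TPM scales, and TAGLN to 0.11 (pseudocount 1) and 0.16 (0.1). MYL9 went to -0.40 with limma-voom, -0.10 on log2(TPM + 0.1) and -0.27 with the replicate block. Leaving out 1 library gave ranges of -0.37 to 0.74 for TPM1, -0.53 to -0.033 for TPM2, -0.12 to 0.35 for TPM4, -0.78 to 0.69 for TAGLN, -0.63 to 0.95 for MYL9 and -0.31 to 0.062 for MYH9. Differences in shares, in percentage points, ranged from -0.709 to 1.31 for TPM1, -3.15 to 5.52 for TPM4 (-2.31 with CPM), -1.44 to 4.65 for MYH9, -0.0067 to 0.606 for MYL9 and 1.45 to 3.59 for TAGLN2.

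Deviations of same-numbered clones from their group means correlated by 0.022, 0.007 and 0.224 across genes for replicates 1, 2 and 3. Clones of different number correlated by -0.124 to 0.104. Only the clones numbered 3 correlated best with each other, and these values do not settle whether replicate numbers pair the clones. With the replicate block there were 11 higher and 9 lower calls and 0 members called. The reads were amplified and carry no molecular identifiers, so spread between clones and amplification noise cannot be told apart. The lowest count of a member was 26, for MYL9 in ZEB1-KO replicate 3.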

Other observations

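CNN3, the calponin outside the 10 genes, varied between clones of both groups, at 1.85, 4.01 and 12.6 CPM in the WT clones and 0.798, 8.59 and 0.964 CPM in ZEB1-KO replicates 1, 2 and 3. MYLK, which encodes the kinase that phosphorylates the myosin regulatory light chain, was at 4.41 CPM ± 4.91 among WT clones against 1.43 CPM ± 0.619 among ZEB1-KO clones (SD, n = 3 each), at a BH-adjusted p of 0.305 in the quasi-likelihood test. The groups overlapped for MYLK, with 10.1, 1.45 and 1.70 CPM in WT replicates 1, 2 and 3 and 2.14, 1.09 and 1.06 CPM in ZEB1-KO replicates 1, 2 and 3. WT replicate 1 alone lay far above the other clones. FLNA, the filamin A gene, was highest in ZEB1-KO replicate 2 at 43.3 CPM, with 16.4 and 18.1 CPM in the other clones of that group and 18.7, 8.69 and 9.11 CPM in WT replicates 1, 2 and 3.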
